A study of Homo sapiens with 27 samples.

Results

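The genes described here encode the enzymes that desaturate and elongate fatty acyl-CoA: the desaturases SCD, FADS1, FADS2 and FADS3 and the elongases ELOVL1, ELOVL2, ELOVL4, ELOVL5, ELOVL6 and ELOVL7. They were found by gene symbol, and all 10 were among the 20987 genes of the table. RNA sequencing covered 3 human prostate cancer cell lines that had received 500 nM or 100 nM of IPI-9119, which blocks fatty acid synthase (FASN), or the vehicle DMSO, for 6 days in unchanged medium. LNCaP is labelled androgen sensitive, whereas 22Rv1 and LNCaP95 (an androgen-independent subline of LNCaP) are labelled castration resistant. The 9 groups of line and dose held 3 libraries each, and cells were collected together with their conditioned medium. Whether replicates came from separate cultures is not in the labels, so p-values reflect only the spread between these libraries, possibly a technical one.

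Fatty acid synthase ends at palmitate, a saturated fatty acid. SCD places the first double bond into palmitate and stearate, FADS2 and FADS1 add double bonds to dietary polyunsaturated fatty acids, and each ELOVL enzyme carries out the condensation step that lengthens its own range of acyl chains. Many of these genes are known targets of SREBP-1, the transcription factor encoded by SREBF1, whose activity is held down by sterols and by polyunsaturated fatty acids, and a lipogenic programme of this kind is a known feature of prostate cancer cells.

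Values are the deposited normalised read counts. Reads in genes numbered 14757874 to 26578881 per library. All 9 luminal prostate markers, among them KLK3, averaged 10 or more in every group, and 3 basal markers summed to at most 18.5. Other lists were not low throughout. The 4 neuroendocrine markers summed to 1657 to 2045 in 22Rv1 and to at most 36.8 elsewhere. In 22Rv1 that sum was nearly all SYP, CHGB and CHGA, with NCAM1 at most 6.81. The 4 stromal markers summed to 1423 to 2242 in LNCaP95 and to at most 447 elsewhere. The LNCaP95 sum was nearly all COL1A1 and LUM, with COL1A2 at most 0.783 and DCN at most 1.76. The 3 endothelial markers summed to 197 to 376 in LNCaP and to at most 14.4 elsewhere, and the 4 immune markers to at most 154. The endothelial sum in LNCaP was VWF alone, with PECAM1 and CDH5 at 0 in every LNCaP library. LNCaP replicate 1 libraries stood apart from replicates 2 and 3. Per library 14863 to 15962 genes were detected, apart from 18444 in replicate 3 of 22Rv1 with DMSO. That library also had the highest basal, immune and endothelial sums of its group (9.28, 45.4 and 14.4). Over 8 proliferation markers, all present in every group, the summed level in LNCaP was 4806 to 15113 with DMSO, 13937 to 24541 at 100 nM and 12937 to 15175 at 500 nM. The LNCaP value of 15113 with DMSO was that of replicate 1, and the other DMSO replicates had 5565 and 4806. In 22Rv1 the level was 36405 to 37148 with DMSO, 28385 to 34360 at 100 nM and 29559 to 32463 at 500 nM, and in LNCaP95 it was 39815 to 44394, 11686 to 16103 and 10957 to 16275 in the same order of dose. The part of proliferation in the changes below was not tested. In bulk RNA, fewer cells expressing a gene and less of its RNA per cell cannot be told apart.

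Together the 10 genes took 0.296% ± 0.0436 of all normalised counts in LNCaP at 500 nM against 0.0873% ± 0.0323 with DMSO (SD, n = 3 each), 0.377% ± 0.00912 in 22Rv1 at 500 nM against 0.128% ± 0.0166 with DMSO, and 0.314% ± 0.0503 in LNCaP95 at 500 nM against 0.170% ± 0.0246 with DMSO. The 3 libraries at 500 nM lay above all 3 DMSO libraries in each line. SCD and FADS2 rose in all 3 lines at both doses, and the other genes rose, fell or were not called according to the line.

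**Figure D1:**
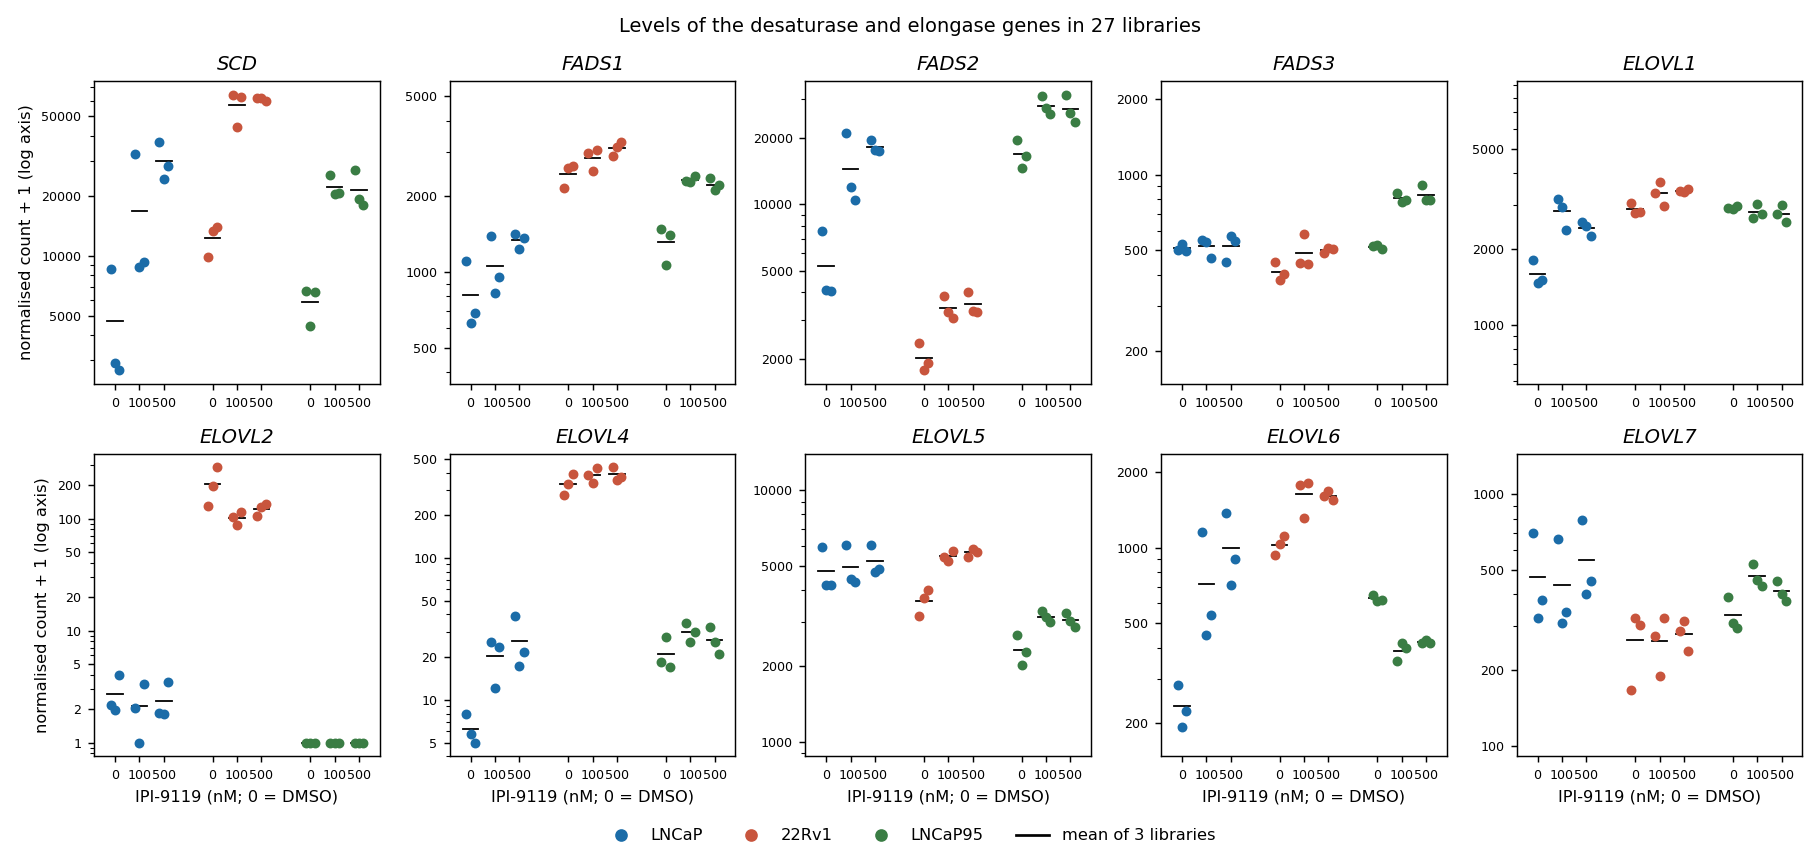
Normalised count plus 1, on a log axis, of each gene in the 27 libraries, by line (colour) and IPI-9119 concentration in nM, with 0 for DMSO. Points are libraries and bars are means of 3. SCD is higher in all 500 nM libraries than in all DMSO libraries of its line, ELOVL6 is higher at 500 nM in LNCaP and 22Rv1 and lower in LNCaP95, and ELOVL2 is at 0 in the 9 LNCaP95 libraries.

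Promoter sequences of SCD, ELOVL5 and ELOVL6 are shown because these genes stand for the 3 patterns met below. They are a rise in every line, a rise called in the castration-resistant lines and not in LNCaP, and a change of opposite sign between lines. The second rests on calls within lines, since the main fit called no difference of the ELOVL5 response between lines. Each is the 250 bases before the RefSeq start (GRCh38.p14, gene strand, 5′ to 3′), with the CCAAT box, the known site of the factor NF-Y that acts beside SREBP, in capitals (ATTGG where it reads on the other strand). SCD lies at chr10:100346983-100347232 on the plus strand, ELOVL5 at chr6:53348951-53349200 on the minus strand and ELOVL6 at chr4:110198616-110198865 on the minus strand.
SCD: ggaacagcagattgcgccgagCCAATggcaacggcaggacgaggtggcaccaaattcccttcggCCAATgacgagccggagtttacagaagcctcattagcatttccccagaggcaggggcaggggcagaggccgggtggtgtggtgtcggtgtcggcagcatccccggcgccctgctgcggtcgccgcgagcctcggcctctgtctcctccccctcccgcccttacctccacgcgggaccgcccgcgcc
ELOVL5: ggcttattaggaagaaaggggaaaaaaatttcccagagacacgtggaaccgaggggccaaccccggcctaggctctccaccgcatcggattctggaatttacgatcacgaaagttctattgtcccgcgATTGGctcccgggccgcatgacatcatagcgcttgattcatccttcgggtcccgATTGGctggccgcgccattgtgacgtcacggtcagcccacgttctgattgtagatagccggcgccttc
ELOVL6: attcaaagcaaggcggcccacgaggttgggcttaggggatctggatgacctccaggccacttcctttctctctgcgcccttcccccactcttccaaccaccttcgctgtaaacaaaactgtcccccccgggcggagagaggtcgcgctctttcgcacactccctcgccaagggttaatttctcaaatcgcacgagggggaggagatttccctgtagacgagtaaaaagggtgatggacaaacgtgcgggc
Counted from the start, SCD had 2 CCAAT boxes, at bases -229 to -225 and -186 to -182, and ELOVL5 had 2, at -122 to -118 and -68 to -64, whereas ELOVL6 had none.

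The table held a promoter window, 250 bases before to 50 after a start, for all 10 genes, with 2 windows for FADS2. On both strands of these 300 bases, CCAAT also occurred in the windows of ELOVL4 and FADS3 (2 each) and of ELOVL1 and FADS2 (1 each), and not in those of FADS1, ELOVL2 or ELOVL7. It occurred in 34.61% of all 35116 windows. CACGTG, the E-box, occurred in the windows of ELOVL4 and ELOVL5 and in 7.256% of all, and GGGCGG, the GC box, in a window of every gene but ELOVL5 and in 44.95% of all. TCACNCCAC, the sterol regulatory element, occurred in no window of the 10 genes and in 1.128% of all windows. These matches are letters in a short window and are not evidence of binding or of its absence.

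SCD, which makes oleate and palmitoleate, was the gene of the family with the largest rise at 500 nM in each line. In 22Rv1 its normalised counts were 9875, 13274 and 13882 with DMSO, 64189, 44499.5 and 62573 at 100 nM and 62139.9, 62141 and 59819 at 500 nM. All 6 treated libraries lay above every DMSO library. In LNCaP the counts were 8612, 2905 and 2671 with DMSO, 32440.4, 8812 and 9342 at 100 nM and 37018, 24229 and 28192 at 500 nM. Replicate 1 was the highest library of each LNCaP group, and the DMSO library of replicate 1 came close to the 100 nM libraries of replicates 2 and 3. In LNCaP95 they were 6626, 4453 and 6592 with DMSO, 25484, 20456 and 20612 at 100 nM and 26898, 19252 and 18015 at 500 nM, with no overlap between treated and DMSO libraries.

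The log2 fold change of SCD at 500 nM over DMSO, on the log2(value + 1) scale, was 2.33 ± 0.16 (adjusted p = 7.55e-06) in 22Rv1, 2.85 ± 0.50 (adjusted p = 0.00285) in LNCaP and 1.86 ± 0.17 (adjusted p = 2.06e-06) in LNCaP95, where ± is the standard error and adjusted p is that of limma with Benjamini-Hochberg adjustment over all genes tested. Ordered by the size of the rise, SCD stood 7th of 13563 genes in 22Rv1, 68th of 12837 in LNCaP and 172nd of 12844 in LNCaP95. At 100 nM over DMSO the change was 2.21 ± 0.16 (adjusted p = 1.21e-05) in 22Rv1, 1.77 ± 0.50 (adjusted p = 0.0256) in LNCaP and 1.93 ± 0.17 (adjusted p = 1.66e-06) in LNCaP95. The LNCaP call at 100 nM was lost without DMSO replicate 2, DMSO replicate 3 or 100 nM replicate 1 (adjusted p = 0.0946, 0.102 and 0.0676).

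FADS2, which takes the first desaturation step of linoleic and alpha-linolenic acid and can also desaturate palmitate, was the other gene to rise in all lines. In LNCaP its counts were 7605, 4091 and 4049.6 with DMSO, 20981, 12030.0 and 10416 at 100 nM and 19599.5, 17697 and 17488 at 500 nM. Every treated library was above every DMSO library. In 22Rv1, where FADS2 was lowest, the counts were 2348, 1779 and 1925 with DMSO, 3839, 3247 and 3059.6 at 100 nM and 4022, 3311 and 3261 at 500 nM, and in LNCaP95 they were 19556, 14586 and 16622, 30949, 27214 and 25655 and 31319.5, 25974 and 23491 in the same order of dose. Treated and DMSO libraries did not overlap in any of the lines. The log2 fold change at 500 nM over DMSO was 1.86 ± 0.27 (adjusted p = 8.51e-04) in LNCaP, 0.81 ± 0.13 (adjusted p = 0.00342) in 22Rv1 and 0.67 ± 0.13 (adjusted p = 8.01e-04) in LNCaP95.

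FADS1, the enzyme that completes arachidonic and eicosapentaenoic acid, shares 490 exonic bases with FADS2 on the opposite strand, 4.79% of its exons in GENCODE 29. Whether reads were counted by strand is not stated in the labels or notes, so both values are uncertain to an extent not measured. FADS2 counts far exceeded those of FADS1 in LNCaP95, at 16921 against 1316 on average with DMSO, so FADS1 may be the more affected. In LNCaP95 its counts were 2353, 2114 and 2213 at 500 nM against 1479, 1064 and 1403 with DMSO, and the groups did not overlap. The change was 0.77 ± 0.10 (adjusted p = 4.30e-05). In LNCaP the counts were 1415, 1232 and 1361 at 500 nM against 1109, 627 and 684 with DMSO, a change of 0.77 ± 0.22 (adjusted p = 0.0289). This call was lost without any one of DMSO replicate 2, DMSO replicate 3 or the 3 libraries at 500 nM (adjusted p = 0.0577 to 0.110). In 22Rv1, FADS1 had 2883, 3133 and 3285 at 500 nM against 2165, 2586 and 2634 with DMSO. Those groups did not overlap either, but the change of 0.34 ± 0.11 (adjusted p = 0.0876) was not called, except in a fit of only the libraries compared (adjusted p = 0.0436).

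FADS3, a desaturase of sphingoid bases, rose in LNCaP95. Its counts there were 911, 796 and 792 at 500 nM against 520.3, 523 and 506 with DMSO, a change of 0.69 ± 0.08 (adjusted p = 1.20e-05), with all treated libraries above all DMSO libraries. In LNCaP they were 449, 569 and 545 at 500 nM against 502, 532 and 499 with DMSO, overlapping groups with a change of 0.021 ± 0.11 (adjusted p = 0.92). In 22Rv1 the change was 0.29 ± 0.13 (adjusted p = 0.189), also not called.

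ELOVL6, which lengthens palmitate to stearate and so acts directly on the product of FASN, moved in opposite directions. In LNCaP its counts were 284, 192 and 223 with DMSO, 1157, 449.8 and 538 at 100 nM and 1373, 711 and 898 at 500 nM. In 22Rv1 they were 936, 1028 and 1106 with DMSO, 1764, 1309 and 1806 at 100 nM and 1606, 1675 and 1542 at 500 nM. In LNCaP95 they were 649, 614 and 619 with DMSO, 352, 416 and 397 at 100 nM and 416, 429 and 417 at 500 nM. All treated libraries lay above the DMSO libraries in LNCaP and in 22Rv1, and all lay below them in LNCaP95.

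At 500 nM over DMSO the log2 fold change of ELOVL6 was 2.05 ± 0.32 (adjusted p = 0.0015) in LNCaP, 0.65 ± 0.13 (adjusted p = 0.00968) in 22Rv1 and -0.57 ± 0.08 (adjusted p = 8.91e-05) in LNCaP95. The 22Rv1 call was lost without 500 nM replicate 2 (adjusted p = 0.0509). At 100 nM over DMSO the change was 1.50 ± 0.32 (adjusted p = 0.00757) in LNCaP, 0.66 ± 0.13 (adjusted p = 0.0102) in 22Rv1 and -0.69 ± 0.08 (adjusted p = 1.97e-05) in LNCaP95, and the 22Rv1 call was lost without 100 nM replicate 1 (adjusted p = 0.0651). In LNCaP95 the fall was called under every alternative run, in a line in which the proliferation markers also fell to the sums given above.

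ELOVL5, an elongase of polyunsaturated fatty acids, rose in both castration-resistant lines. In 22Rv1 its counts were 5421, 5836 and 5687 at 500 nM against 3169.5, 3709 and 3987 with DMSO, a change of 0.65 ± 0.10 (adjusted p = 0.00263). In LNCaP95 they were 3254, 3016 and 2857 at 500 nM against 2649, 2018 and 2272 with DMSO, a change of 0.40 ± 0.09 (adjusted p = 0.00276). Neither line had an overlap between the groups. In LNCaP the counts were 6024, 4738 and 4852 at 500 nM against 5961, 4196 and 4177 with DMSO. There replicate 1 was the highest library in both groups, the groups overlapped, and the change was 0.14 ± 0.17 (adjusted p = 0.602). In a fit of all 27 libraries, the difference in response was not called for 22Rv1 minus LNCaP, at 0.51 ± 0.19 (adjusted p = 0.0735). Nor was it for LNCaP95 minus LNCaP, at 0.27 ± 0.19 (adjusted p = 0.281). The former was called with a replicate block (adjusted p = 0.00245). No clear pairing by number was seen over the groups of 22Rv1, however. The 22Rv1 minus LNCaP difference was also called without LNCaP 500 nM replicate 1 (adjusted p = 0.0382) and from LNCaP replicates 2 and 3 alone (0.0315). The last of these is a description only, since replicate 1 was left out with its values known.

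ELOVL1, an elongase of saturated and monounsaturated chains used in sphingolipids, rose in LNCaP, with counts of 2558, 2476 and 2255 at 500 nM against 1815, 1465 and 1505 with DMSO and a change of 0.61 ± 0.12 (adjusted p = 0.00475). At 100 nM the LNCaP counts were 3164, 2942 and 2390.5, a change of 0.82 ± 0.12 (adjusted p = 9.38e-04). The 6 treated libraries were all above the 3 DMSO libraries. In 22Rv1 and LNCaP95 the change at 500 nM was 0.24 ± 0.10 (adjusted p = 0.153) and -0.082 ± 0.08 (adjusted p = 0.384), called in neither.

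ELOVL4, known for the very long chains of retina, skin and brain, was low in LNCaP. Its counts there were 6.92, 4.74 and 3.998 with DMSO, 24.7, 11.1 and 22.6 at 100 nM and 37.9, 16.4 and 20.7 at 500 nM. No DMSO library reached a count of 10, so the gene was tested in LNCaP only through its treated libraries, where it is higher, and its values there are a description only. The change was 2.01 ± 0.42 at 500 nM and 1.67 ± 0.42 at 100 nM over DMSO, and with a pseudocount of 10 it was 1.16 and 0.925. The call at 100 nM was lost without DMSO replicate 3 (adjusted p = 0.0540). In 22Rv1 ELOVL4 had 435, 356 and 372 at 500 nM against 275, 329.8 and 393 with DMSO, and in LNCaP95 31.4, 24.7 and 20.2 at 500 nM against 17.6, 26.6 and 15.9 with DMSO. The groups overlapped in both lines, and the changes of 0.23 ± 0.15 (adjusted p = 0.395) and 0.34 ± 0.27 (adjusted p = 0.311) were not called.

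ELOVL7, an elongase of saturated long chains, rose in LNCaP95 at 100 nM, with counts of 529.6, 455 and 429.6 against 389, 308 and 292 with DMSO and a change of 0.52 ± 0.12 (adjusted p = 0.00304). At 500 nM in LNCaP95 its counts were 453, 402 and 377, overlapping DMSO. That change was 0.32 ± 0.12 (adjusted p = 0.0401), and the call was lost with no filter, with libraries scaled to the same total, with edgeR and with DESeq2 (adjusted p = 0.0524 to 0.0621) and without any one of DMSO replicate 2, DMSO replicate 3, 500 nM replicate 1 or 500 nM replicate 2 (adjusted p = 0.0714 to 0.152). In LNCaP the counts were 789, 402 and 450.5 at 500 nM against 702, 322 and 378 with DMSO, and replicate 1 was far above the other replicates in both groups. The changes of 0.25 ± 0.35 (adjusted p = 0.657) in LNCaP and 0.13 ± 0.25 (adjusted p = 0.798) in 22Rv1 were not called.

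ELOVL2, which acts on the longest polyunsaturated chains on the way to docosahexaenoic acid, had counts of 128, 193 and 286 with DMSO, 102, 85.8 and 113 at 100 nM and 105, 126 and 134 at 500 nM in 22Rv1. The log2 fold change was -0.94 ± 0.25 (adjusted p = 0.0433) at 100 nM and -0.66 ± 0.25 (adjusted p = 0.132) at 500 nM over DMSO. The 100 nM call was lost without DMSO replicate 2 or 3 or without 100 nM replicate 1 or 2 (adjusted p = 0.0814 to 0.146), with no filter (0.0669) and in a fit of only the libraries compared (0.109), and at 500 nM the fall was called only without DMSO replicate 1 (adjusted p = 0.0222). The highest DMSO count, 286, came from replicate 3, the library with 18444 genes detected. Without that library the change at 100 nM was -0.65. LNCaP held 5 reads of ELOVL2 over the DMSO libraries, 4 over the 100 nM libraries and 5 over the 500 nM libraries, and LNCaP95 held 0 in all 9 libraries, so the gene was not tested there.

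At 500 nM over DMSO, 6 of the 9 tested genes were called higher in LNCaP and none lower, where 20.8% of all tested genes were called, 11.0% higher and 9.83% lower. In 22Rv1, 4 of 10 were called higher and none lower, where 6.97% of all tested genes were called, 3.47% higher and 3.50% lower. In LNCaP95, 6 of 9 were called higher and 1 lower, ELOVL6, where 52.3% of all tested genes were called, 28.2% higher and 24.1% lower. The median log2 fold change of the tested genes was 0.77 in LNCaP, 0.31 in 22Rv1 and 0.40 in LNCaP95, beside -0.0071, -0.0018 and 0.032 over all genes tested. These medians leave out ELOVL2 in LNCaP and LNCaP95. Without ELOVL4, which passed the filter in LNCaP through its treated libraries, the LNCaP count was 5 of 8 and the LNCaP median 0.69.

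At 100 nM over DMSO, 5 of 9 were called higher and none lower in LNCaP, against 13.7% and 11.6% of all tested genes (25.3% in either direction), and without ELOVL4 the count was 4 of 8. In 22Rv1, 4 of 10 were called higher and 1 lower, against 3.19% and 3.36% of all (6.55% in either direction). In LNCaP95, 6 of 9 were called higher and 1 lower, against 28.2% and 24.1% of all (52.3% in either direction). Both doses share their DMSO libraries, so one dose does not independently repeat the other. From replicates 2 and 3 of LNCaP alone, 6 of 9 genes were called higher at 100 nM and 6 of 9 at 500 nM, ELOVL4 included. Of all genes tested in those fits, 35.9% and 29.6% were called in either direction. These counts are a description only, since replicate 1 was left out with its values known.

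**Figure D2:**
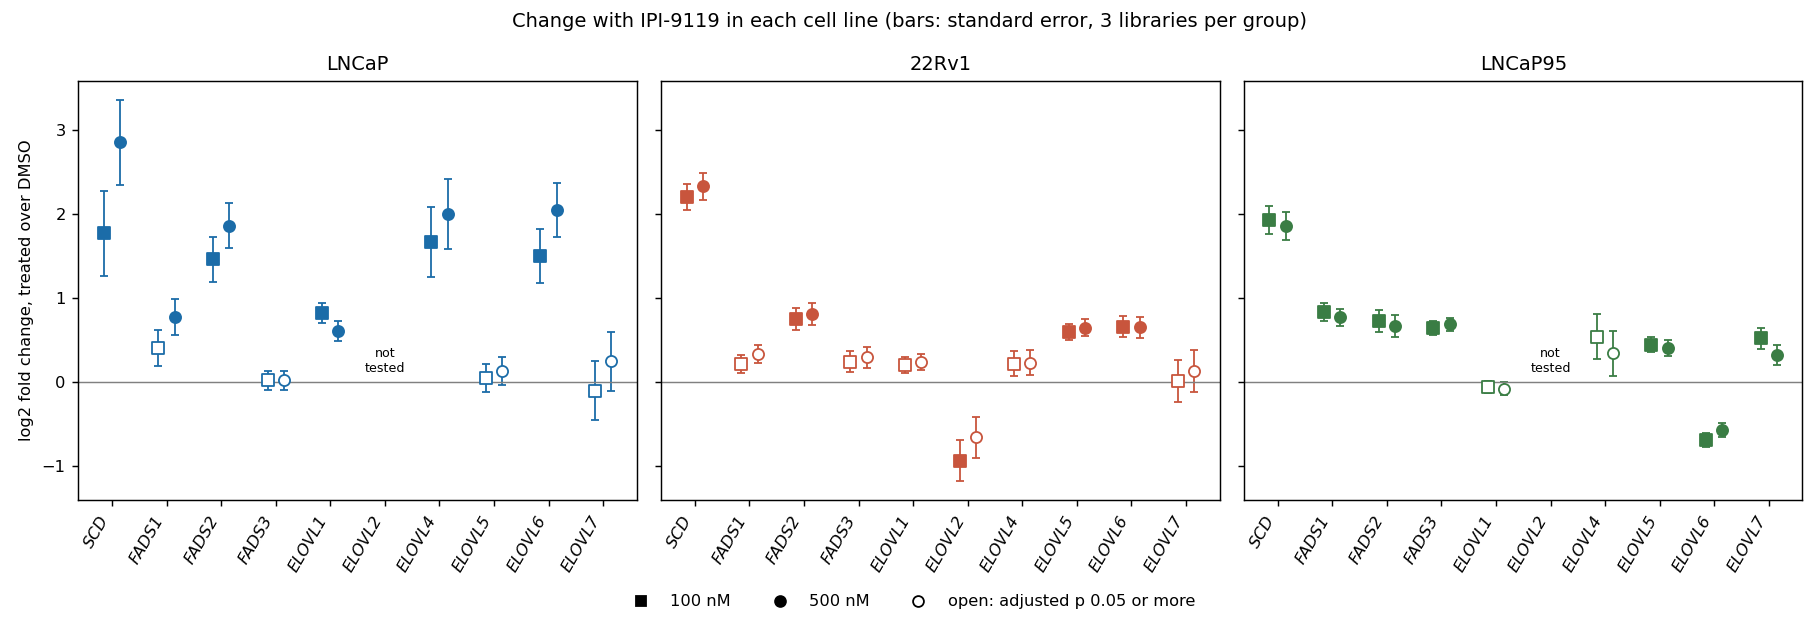
Log2 fold change of each gene over DMSO, on the log2(value + 1) scale, at 100 nM (squares) and 500 nM (circles) IPI-9119 in each line, with bars of 1 standard error. Filled marks have an adjusted p under 0.05. SCD is the highest point in each line, at 2.85 in LNCaP, 2.33 in 22Rv1 and 1.86 in LNCaP95 at 500 nM, and ELOVL6 lies below 0 in LNCaP95 at both doses.

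Between the doses, 500 nM over 100 nM, none of the tested genes was called in any line. In LNCaP, where 1 of 12837 genes (0.00779%) was called, SCD differed by 1.08 ± 0.50 (adjusted p = 0.442), and no tested gene of the family had an unadjusted p under 0.05. From replicates 2 and 3 alone, the difference was 1.53 for SCD, 0.54 for FADS1, 0.65 for FADS2 and 0.70 for ELOVL6. These values are a description with no test, since replicate 1 was left out with its values known and its 100 nM library had counts close to those at 500 nM. In 22Rv1 and LNCaP95, 0 of all tested genes (0%) were called between the doses by limma, and no gene of the family had an unadjusted p under 0.05. The differences there ranged from -0.0027 to 0.28 in 22Rv1 and from -0.20 to 0.12 in LNCaP95.

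The response at 500 nM was then compared between lines in a fit of all 27 libraries. ELOVL6 differed in each pairing. The difference in its log2 fold change was -2.63 ± 0.33 (adjusted p = 1.27e-06) for LNCaP95 minus LNCaP, -1.23 ± 0.33 (adjusted p = 0.00812) for LNCaP95 minus 22Rv1 and -1.40 ± 0.33 (adjusted p = 0.00529) for 22Rv1 minus LNCaP. FADS2 rose less in LNCaP95 than in LNCaP, with a difference of -1.19 ± 0.30 (adjusted p = 0.00274), and less in 22Rv1 than in LNCaP, with -1.05 ± 0.30 (adjusted p = 0.0184). The last call was lost without LNCaP DMSO replicate 2 or 3 (adjusted p = 0.0597 and 0.0648).

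For ELOVL4 the difference was -1.67 ± 0.41 for LNCaP95 minus LNCaP and -1.78 ± 0.41 for 22Rv1 minus LNCaP. These values are a description only, since the gene passed the filter in LNCaP through its treated libraries. They rest on LNCaP DMSO counts under 10 and were -0.916 and -0.935 with a pseudocount of 10. ELOVL1 differed by -0.69 ± 0.14 (adjusted p = 4.27e-04) and FADS3 by 0.66 ± 0.15 (adjusted p = 0.00116), both for LNCaP95 minus LNCaP. For SCD no difference was called: LNCaP95 minus LNCaP was -0.99 ± 0.53 (adjusted p = 0.141), 22Rv1 minus LNCaP -0.52 ± 0.53 (adjusted p = 0.569) and LNCaP95 minus 22Rv1 -0.47 ± 0.53 (adjusted p = 0.548). Standard errors of that size leave room for sizeable differences. The fit gave each gene 1 spread over all lines. Within lines the standard error of the SCD change was 0.50 in LNCaP, 0.16 in 22Rv1 and 0.17 in LNCaP95. The lowest adjusted p of any alternative for LNCaP95 minus 22Rv1 was 0.144. Without LNCaP DMSO replicate 1 the SCD difference of LNCaP95 minus LNCaP became -1.54 and was called (adjusted p = 0.00925). A replicate block likewise gave a call (adjusted p = 0.0114), and so it did for the ELOVL5 difference of 0.27 in that pairing (adjusted p = 0.0491). Same-numbered DMSO and 500 nM libraries deviated together in both LNCaP95 and LNCaP. In all, 3 of 9 genes were called for 22Rv1 minus LNCaP, all with a negative difference, beside 14.3% of all genes tested (6.79% positive, 7.52% negative). For LNCaP95 minus LNCaP, 1 of 9 was called with a positive and 4 with a negative difference, beside 38.9% of all (19.8% positive, 19.1% negative). For LNCaP95 minus 22Rv1, 1 of 9 was called, with a negative difference, beside 25.4% of all (13.0% positive, 12.4% negative). Without ELOVL4, 2 of 8 were called for 22Rv1 minus LNCaP and 4 of 8 for LNCaP95 minus LNCaP. From LNCaP replicates 2 and 3 alone, 7 of 9 were called for 22Rv1 minus LNCaP, where 17.3% of all genes tested were, and 6 of 9 for LNCaP95 minus LNCaP, where 39.1% were. These counts include ELOVL4 and are a description only, since replicate 1 was left out with its values known.

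**Figure D3:**
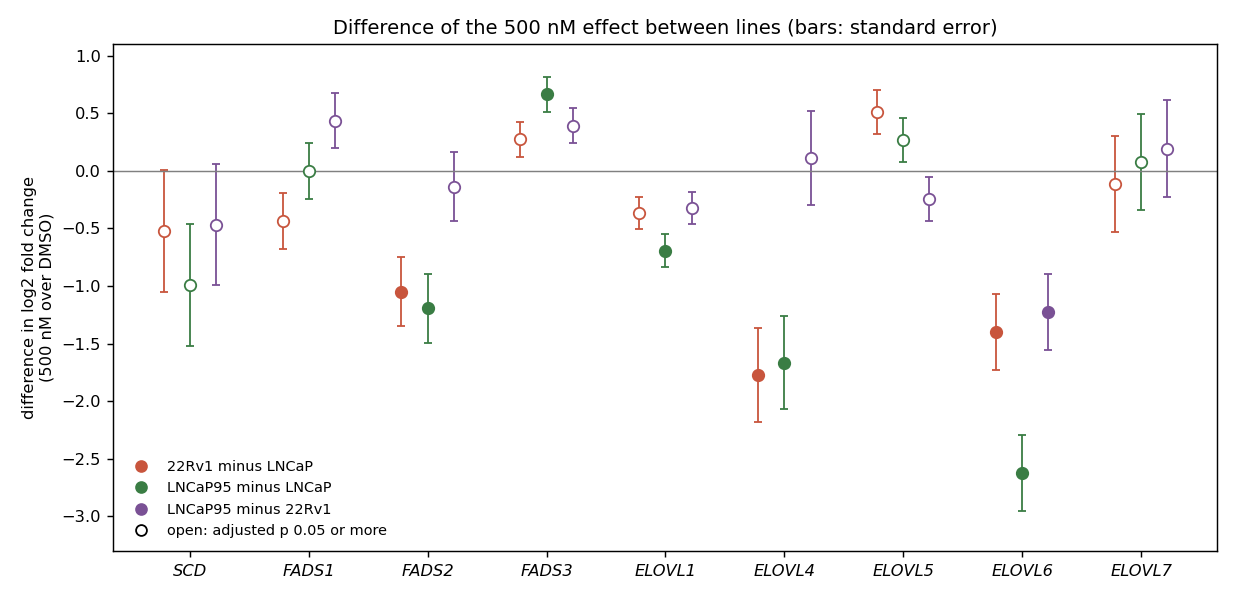
Difference between lines in the log2 fold change of 500 nM over DMSO for the 9 genes tested in every line, with bars of 1 standard error. Filled circles have an adjusted p under 0.05. ELOVL6 is filled in all 3 pairings, at -1.40, -2.63 and -1.23, and SCD in none.

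Without drug the lines differed widely in these genes, as did most genes. Between 22Rv1 and LNCaP all 10 genes were called, 6 higher and 4 lower in 22Rv1, where 74.8% of all genes tested were called, 39.3% higher and 35.5% lower. Without ELOVL4, which passed the filter through 22Rv1 and LNCaP95, 9 of 9 were called, 5 higher and 4 lower. ELOVL2 is among these 5 and passed the filter through 22Rv1 alone, where it is higher, so its call is a description only. From LNCaP replicates 2 and 3 alone, 8 of 10 were called, ELOVL2 and ELOVL4 included, where 73.3% of all genes tested were. That count is a description only, since replicate 1 was left out with its values known. SCD was higher in 22Rv1 by 1.59 ± 0.38 (adjusted p = 5.64e-04), with DMSO counts of 9875, 13274 and 13882 in 22Rv1 against 8612, 2905 and 2671 in LNCaP and no overlap. FADS1 was higher by 1.65 ± 0.17 (adjusted p = 4.93e-09), ELOVL6 by 2.14 ± 0.24 (adjusted p = 1.21e-08) and ELOVL1 by 0.86 ± 0.10 (adjusted p = 2.93e-08). FADS2 was lower in 22Rv1, with 2348, 1779 and 1925 against 7605, 4091 and 4049.6 in LNCaP, a change of -1.32 ± 0.21 (adjusted p = 5.32e-06).

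ELOVL4 and ELOVL2 marked out 22Rv1. ELOVL4 had 275, 329.8 and 393 in 22Rv1 DMSO libraries against 6.92, 4.74 and 3.998 in LNCaP. The change was 5.76 ± 0.29, or 4.48 with a pseudocount of 10. No LNCaP DMSO library reached 10, so ELOVL4 passed the filter through 22Rv1 and LNCaP95, where it is higher. Its untreated values against LNCaP are therefore a description only. For ELOVL2, 534 reads in 22Rv1 DMSO libraries stood against 5 in LNCaP DMSO libraries, a ratio of 122 (95% interval 51.9 to 377, exact for the counts and covering counting error only). The gene passed the filter of the untreated comparisons through 22Rv1 alone, where it is higher, so its untreated values are a description only. Against LNCaP95, with 0 reads, ELOVL2 was at least 76.5-fold higher in 22Rv1, set against a floor of 3 reads per library. FADS3, ELOVL5 and ELOVL7 were lower in 22Rv1 than in LNCaP, with changes of -0.32 ± 0.11, -0.39 ± 0.13 and -0.80 ± 0.30. The ELOVL5 and ELOVL7 calls were lost without LNCaP DMSO replicate 1 (adjusted p = 0.142 and 0.170) without 22Rv1 DMSO replicate 1 (0.0789 and 0.151) or from LNCaP replicates 2 and 3 alone (0.0583 and 0.0708), ELOVL7 also in a fit of only the libraries compared (0.0578), and the FADS3 call without 22Rv1 DMSO replicate 2 (0.05005).

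Set against LNCaP, from which it derives, LNCaP95 without drug had FADS2 higher by 1.74 ± 0.21 (adjusted p = 1.23e-07) and ELOVL6 by 1.44 ± 0.24 (adjusted p = 8.20e-06). ELOVL1 was higher by 0.88 ± 0.10 (adjusted p = 3.28e-08) and FADS1 by 0.74 ± 0.17 (adjusted p = 5.59e-04). For ELOVL4 the change was 1.75 ± 0.29, or 0.969 with a pseudocount of 10, a description only, since no LNCaP DMSO library reached 10. ELOVL5 was lower, with a change of -1.03 ± 0.13 (adjusted p = 3.29e-07). ELOVL2 was also called lower, at 0 reads against 5, counts too low for a fold, and that call was lost with a pseudocount of 10 (adjusted p = 0.282). The gene passed the filter through 22Rv1. In all, 7 of 10 genes were called with ELOVL2 and ELOVL4 included, where 66.5% of all genes tested were (34.0% higher, 32.5% lower). Without ELOVL4, 6 of 9 were called, with ELOVL2 still among them. SCD was not called between these lines, at 0.51 ± 0.38 (adjusted p = 0.236), but without LNCaP DMSO replicate 1 the difference was 1.06 (adjusted p = 0.0102). The untreated ELOVL6 counts of 649, 614 and 619 in LNCaP95 lay above the 284, 192 and 223 of LNCaP, and the 500 nM counts of 416, 429 and 417 in LNCaP95 lay below the 1373, 711 and 898 of LNCaP.

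Compared with 22Rv1, LNCaP95 without drug had FADS2 higher by 3.07 ± 0.21 (adjusted p = 2.65e-12) and FADS3 by 0.34 ± 0.11 (adjusted p = 0.00644). SCD, FADS1, ELOVL2, ELOVL4, ELOVL5 and ELOVL6 were lower in LNCaP95. The change was -4.01 ± 0.29 for ELOVL4, -1.08 ± 0.38 for SCD, -0.91 ± 0.17 for FADS1, -0.70 ± 0.24 for ELOVL6 and -0.65 ± 0.13 for ELOVL5. The SCD call was lost without LNCaP95 DMSO replicate 2 (adjusted p = 0.0651). In this pairing 8 of 10 genes were called, where 76.1% of all genes tested were (35.4% higher, 40.8% lower). ELOVL2 is among these 8 and passed the filter through 22Rv1 alone, where it is higher, so its call is a description only.

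Levels of different genes were compared per kilobase of the longest protein-coding transcript. Among the 6 elongases, ELOVL1 and ELOVL5 together made up most of the sum in every group. In LNCaP with DMSO, ELOVL5 held 57.6% ± 1.49 and ELOVL1 36.9% ± 2.33 (SD, n = 3). ELOVL1 led in 22Rv1 with DMSO, with 53.4% ± 4.53 against 35.2% ± 2.85 for ELOVL5, and in LNCaP95 with DMSO, with 65.9% ± 2.74 against 27.4% ± 2.57. At 500 nM the share of ELOVL1 was 43.2% ± 3.32 in LNCaP, 47.7% ± 0.880 in 22Rv1 and 59.5% ± 1.96 in LNCaP95. ELOVL6 held at most 5.88% on average in any group. These shares, too, depended on the length used. By merged exons, ELOVL5 led ELOVL1 in 22Rv1 at 500 nM (45.1% against 41.5%) and at 100 nM (44.9% against 41.6%). It also led in LNCaP at 100 nM (49.2% against 43.4%), where by transcript ELOVL1 led, as in treated 22Rv1. ELOVL6 then held up to 6.98%. The summed elongase level per kilobase was 3478 ± 404 in LNCaP at 500 nM against 2683 ± 506 with DMSO, 4409 ± 62.2 in 22Rv1 at 500 nM against 3334 ± 126 with DMSO, and 2864 ± 174 in LNCaP95 at 500 nM against 2734 ± 120 with DMSO.

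**Figure D4:**
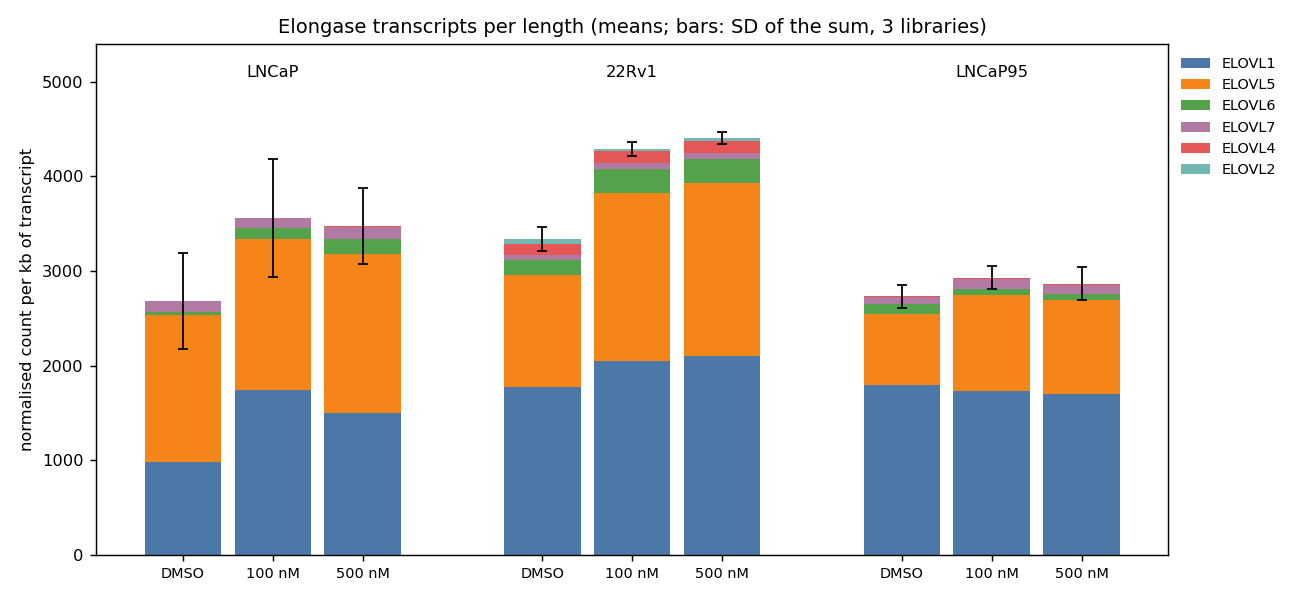
Normalised count per kilobase of transcript of the 6 elongases, stacked, as means of the 3 libraries of each group, with the SD of the sum as bars. ELOVL1 and ELOVL5 fill most of each column, and the column of 22Rv1 is higher at 500 nM (4409) than with DMSO (3334).

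Among the 4 desaturases, SCD held 85.5% ± 0.412 of the sum per kilobase in 22Rv1 at 500 nM against 63.0% ± 5.05 with DMSO, 49.4% ± 4.20 in LNCaP at 500 nM against 29.4% ± 7.50 with DMSO, and 32.1% ± 1.85 in LNCaP95 at 500 nM against 17.2% ± 1.88 with DMSO. FADS2 held 73.5% ± 1.76 in LNCaP95 with DMSO. The shares depended on the length used: by merged exons, chosen after the data were seen, SCD held 94.2% against 82.2%, 74.5% against 55.0% and 58.6% against 38.4% in the same order. SCD led in 22Rv1, and FADS2 in untreated LNCaP95, with either length, whereas the order of SCD and FADS2 in LNCaP with DMSO or 100 nM and in treated LNCaP95 did not keep its sign.

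After the mean of each line was subtracted, the log2 levels of the 9 genes tested in every line were correlated over the 27 libraries, as a description that includes the shared drug effect and shared library depth. Of the 36 pairs, 35 had a positive Pearson r, with a median of 0.57. SCD and FADS2 were the closest pair (r = 0.93), and ELOVL6 and FADS3 the only pair below 0 (r = -0.18). Among 11760 other genes, those nearest to SCD were ABHD4 (r = 0.959), DHCR7 (0.955) and FASN (0.953), and FDFT1 was among those nearest to FADS2 (0.962). FADS1 lay nearest to ACSL1 (0.936), LGALS8 (0.923) and WWC3 (0.920), and FADS3 to TOM1, CCDC159 and P4HB (0.923 to 0.924). ELOVL5 lay nearest to BHLHE40 (0.931), NEDD4L (0.922) and TMEM135 (0.913), and ELOVL1 to MANEAL (0.937), UBE2L3 (0.926) and PROM2 (0.918). ELOVL6 lay nearest to ACAT2 (0.898), ACSL4 (0.892) and FAM222A (0.892), ELOVL4 to ACSL4 (0.900), BIRC3 (0.898) and PIK3R3 (0.896), and ELOVL7 to ZBTB10 (0.857), UBE4B (0.831) and ZNF292 (0.815).

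Regulators of the family, and FASN with them in a list of 14 genes, were read beside it. FASN, the target of the inhibitor, had counts of 234767, 133676 and 126294 at 500 nM against 54998, 29273 and 28676 with DMSO in LNCaP, and rose by 2.14 ± 0.52 (adjusted p = 0.0145), with 1.68 ± 0.14 (adjusted p = 5.33e-05) in 22Rv1 and 0.98 ± 0.14 (adjusted p = 7.10e-05) in LNCaP95. SREBF1 had counts of 15240.5, 14334 and 15038 at 500 nM against 6114, 6046 and 6306 with DMSO in LNCaP95, and its change was 1.27 ± 0.07 (adjusted p = 1.08e-07) there, 1.36 ± 0.11 (adjusted p = 3.59e-05) in 22Rv1 and 1.20 ± 0.21 (adjusted p = 0.00286) in LNCaP. INSIG1, which retains the SREBP escort protein SCAP in the endoplasmic reticulum, rose by 2.87 ± 0.58 (adjusted p = 0.00554) in LNCaP, 0.99 ± 0.11 (adjusted p = 2.90e-04) in 22Rv1 and 1.54 ± 0.10 (adjusted p = 1.90e-07) in LNCaP95. Its relative INSIG2 rose by 0.88 ± 0.14 (adjusted p = 0.00139) in LNCaP and 0.89 ± 0.09 (adjusted p = 5.71e-06) in LNCaP95, and its change of -0.064 ± 0.17 (adjusted p = 0.867) in 22Rv1 was not called. Of these 14 genes, 4 were called higher and none lower in LNCaP, and 5 higher and none lower in 22Rv1. In LNCaP95, 8 were called higher and 1 lower. FASN, which is not itself a regulator, is among those called higher in each line. Medians of the 14 were 0.13 in LNCaP, 0.27 in 22Rv1 and 0.47 in LNCaP95. Over all genes tested, 20.8%, 6.97% and 52.3% were called in the same order of lines. The difference of the SREBF1 response between lines was not called, at 0.077 ± 0.22 (adjusted p = 0.814) for LNCaP95 minus LNCaP, 0.16 ± 0.22 (adjusted p = 0.682) for 22Rv1 minus LNCaP and -0.088 ± 0.22 (adjusted p = 0.805) for LNCaP95 minus 22Rv1.

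Partner enzymes of desaturation and elongation, which reduce and dehydrate the lengthened chain or bring electrons to the desaturases, and the relatives SCD5, ELOVL3 and FADS6 made up a list of 13. Of the 10 tested in LNCaP at 500 nM, 2 were called higher and 1 lower: PTPLAD1 (now HACD3), at 0.42 ± 0.09 (adjusted p = 0.00799), and PTPLB (now HACD2), at 0.32 ± 0.10 (adjusted p = 0.0462), both dehydratases of elongation, and SCD5, at -0.74 ± 0.23 (adjusted p = 0.0409). SCD5, the second stearoyl-CoA desaturase gene, had 114, 102 and 70.4 at 500 nM against 209, 118 and 157 with DMSO in LNCaP. Of the 9 tested in 22Rv1 none was called. In LNCaP95, 4 of 10 were called higher and 3 lower, the smallest p belonging to CYB5R1, at 0.56 ± 0.10 (adjusted p = 3.29e-04), and to the cytochrome b5 genes CYB5A, whose product donates electrons to desaturases, and CYB5B, whose product lies in the outer mitochondrial membrane, at -0.41 ± 0.08 (adjusted p = 7.51e-04) and -0.29 ± 0.08 (adjusted p = 0.00791). The median change of the tested partners was 0.13 in LNCaP, -0.046 in 22Rv1 and 0.12 in LNCaP95. In LNCaP95, 28.2% of all genes tested were called higher and 24.1% lower, and in LNCaP 11.0% and 9.83%.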

How the data were processed

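Poly(A) RNA had been sequenced as directional paired-end libraries, per the labels' protocols. The deposited table gives a normalised signal, the authors' count per gene divided by a size factor of the library. The submitters' processing notes name STAR 2.3.1z4, featureCounts, DESeq and the build hg19. Whole reads were recovered in 27 of 27 libraries within a tolerance of 1e-06, and they served the edgeR and DESeq2 alternatives. One read was worth 0.757 to 1.39 units.

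Values were tested as log2(value + 1) with limma 3.58.1 (R 4.3.3), trend on, two-sided, with Benjamini-Hochberg adjustment over all genes with a value of 10 or more in at least 3 fitted libraries, and called at an adjusted p under 0.05. The log scale understates changes of low genes. Comparisons within a line used its 9 libraries, and all others used 27. Differences between lines needed the filter in each line, and untreated comparisons used it over the 9 DMSO libraries. Alternatives used edgeR 4.0.16, DESeq2 1.42.0, a pseudocount of 10, no filter, another scaling, a replicate block and fewer libraries.

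Same-numbered libraries deviated together in LNCaP95 (correlations of 0.128 to 0.470 in 9 of 9 pairs over the groups). In LNCaP they did so between DMSO and 500 nM (0.131 to 0.316 in 3 of 3) and between the doses (0.263 to 0.389 in 3 of 3). Between DMSO and 100 nM in LNCaP they did not (-0.003 to 0.082). The labels do not state a pairing, so whether the numbers pair the samples is not known. Where the libraries deviated together, the block changed no call of a gene of the family in comparisons within a line.

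Named genes were the 10 members, FASN, SREBF1, up to 3 called partners or regulators of smallest p in each 500 nM comparison and the 3 nearest genes by r, some of which are not reported here. Members and lists were chosen with earlier results of these data known. All members of the partner and regulator lists had a row in the table. Transcript lengths came from GENCODE 29 by symbol and promoters from RefSeq, both on GRCh38, a build other than that of the files. Pseudogenes of SCD and FADS2 were not analysed here.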

Additional observations from a re-analysis of the deposited data

Results flagged for a closer look

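For 9 results the effect of 500 nM IPI-9119 differed between lines by a test of the difference itself (limma, all 27 libraries). ELOVL6 differed by -2.63 ± 0.33 for LNCaP95 minus LNCaP, -1.40 ± 0.33 for 22Rv1 minus LNCaP and -1.23 ± 0.33 for LNCaP95 minus 22Rv1. FADS2 differed by -1.19 ± 0.30 for LNCaP95 minus LNCaP and -1.05 ± 0.30 for 22Rv1 minus LNCaP. ELOVL4 differed by -1.67 ± 0.41 and -1.78 ± 0.41 in the same pairings, from LNCaP DMSO counts of 6.92, 4.74 and 3.998, and these 2 are a description only, since the gene passed the filter in LNCaP through its treated libraries. ELOVL1 differed by -0.69 ± 0.14 and FADS3 by 0.66 ± 0.15 for LNCaP95 minus LNCaP. Untreated levels of these genes also differed between lines, and the summed proliferation markers moved with treatment. They were 12937 to 15175 in LNCaP at 500 nM against 4806, 5565 and 15113 with DMSO, 29559 to 32463 in 22Rv1 at 500 nM against 36405 to 37148 with DMSO, and 10957 to 16275 in LNCaP95 at 500 nM against 39815 to 44394 with DMSO. The part of either in these differences was not tested.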

How the results depend on the processing

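Results for the genes of the family numbered 122, of which 68 were called. The 122 leave out 500 nM over 100 nM in 22Rv1 and LNCaP95. The 68 include ELOVL4 calls that involve LNCaP, and untreated ELOVL2 calls. Those genes passed the filter there through groups in which they are higher, so such calls are a description only. Under the alternatives none of the 68 changed sign and 55 kept their call under every one, and the report names the settings in which the other 13 lost theirs. Signs turned only among changes that were not called. FADS3 in LNCaP at 100 nM was -0.038 from replicates 2 and 3 alone. ELOVL7 in 22Rv1 at 100 nM was -0.084 with libraries scaled to the same total, -0.0072 by edgeR and -0.0030 by DESeq2. For LNCaP95 minus LNCaP, FADS1 was 0.0023 with a pseudocount of 10, 0.0045 by edgeR and 0.032 by DESeq2, and ELOVL7 was -0.022 with libraries scaled to the same total. Leaving out 1 library turned the sign of 16 results not called. Their ranges were, in LNCaP at 500 nM over DMSO, -0.047 to 0.12 for FADS3 and -0.049 to 0.58 for ELOVL7, at 100 nM over DMSO, -0.025 to 0.093 for FADS3, -0.11 to 0.22 for ELOVL5 and -0.45 to 0.23 for ELOVL7, and at 500 nM over 100 nM, -0.072 to 0.11 for FADS3, -0.0069 to 0.58 for ELOVL4 and -0.021 to 0.25 for ELOVL5. In 22Rv1 ELOVL7 ranged from -0.17 to 0.30 at 500 nM and from -0.29 to 0.22 at 100 nM. Between lines, ELOVL7 ranged from -0.45 to 0.18 for 22Rv1 minus LNCaP and from -0.26 to 0.37 for LNCaP95 minus LNCaP, FADS1 from -0.25 to 0.16 for LNCaP95 minus LNCaP and ELOVL4 from -0.047 to 0.32 for LNCaP95 minus 22Rv1. Untreated, FADS3 ranged from -0.00090 to 0.045 for LNCaP95 over LNCaP and ELOVL1 from -0.0045 to 0.062 for LNCaP95 over 22Rv1.

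Some counts of calls also moved. From only the libraries compared, 2158 of all genes were called in LNCaP at 100 nM (3250 otherwise), 1433 in 22Rv1 at 500 nM (946), 355 in 22Rv1 at 100 nM (889) and 0 in LNCaP at 500 nM over 100 nM (1), and 3 genes of the family for LNCaP95 minus 22Rv1. For LNCaP at 500 nM over 100 nM, DESeq2 called 93 of all genes, and replicates 2 and 3 alone gave 755 of all genes and 4 of the family. Those replicates gave 7 of the family for 22Rv1 minus LNCaP, ELOVL4 included. Their counts are a description only, since replicate 1 was left out with its values known. For LNCaP95 minus 22Rv1, scaling to the same total and DESeq2 each gave 2 of the family. Leaving out 1 library gave, in LNCaP, 1475 to 3891 of all genes at 500 nM, 1736 to 4617 of all and 3 to 6 of the family at 100 nM, and 0 to 67 of all at 500 nM over 100 nM. In 22Rv1 it gave 384 to 697 of all at 500 nM, and 261 to 1184 of all and 3 to 5 of the family at 100 nM. For 22Rv1 minus LNCaP it gave 2 to 5 of the family. The cause was not tested, beyond the fewer samples of these fits.

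With the replicate number as a block, 8 of the 122 results gained a call and none lost one, and the block gave 0 of all genes for LNCaP at 500 nM over 100 nM, 5 of the family for 22Rv1 minus LNCaP and 3 for LNCaP95 minus 22Rv1. In 22Rv1 same-numbered libraries correlated by -0.291 to 0.387 over the groups (4 of 9 pairs over 0.1). Between DMSO and 500 nM alone in 22Rv1 they correlated by 0.071 to 0.205 (2 of 3 over 0.1). In LNCaP at 100 nM and DMSO they correlated by -0.003 to 0.082. No clear pairing by number was seen over the groups of 22Rv1 or in that LNCaP comparison. For SCD in untreated LNCaP95 over LNCaP the block gave an adjusted p of 0.0409, but no number pairs libraries across lines. Scaling to the same total shifted the median of all genes by over 0.1 in 3 comparisons, by -0.16 for 22Rv1 minus LNCaP, 0.21 for untreated LNCaP95 over LNCaP and 0.14 for untreated LNCaP95 over 22Rv1. Under that scaling, higher calls made up 69.0% in LNCaP at 500 nM (52.8% otherwise), 65.7% at 100 nM (54.3%), 26.7% in 22Rv1 at 500 nM (49.8%) and 26.9% at 100 nM (48.7%). Positive calls made up 21.4% for 22Rv1 minus LNCaP (47.4%), 39.5% for LNCaP95 minus LNCaP (50.9%), 61.6% for LNCaP95 minus 22Rv1 (51.2%) and 63.2% for untreated LNCaP95 over LNCaP (51.1%), where FADS3 gained a call. Depth limits ELOVL2 outside 22Rv1 and ELOVL4 in LNCaP, at few reads per library.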
